A study of Mus musculus with 8 samples.

Results

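Calvarial osteoblastic cells are the bone-forming precursors of the skull vault, and here they were compared between Def6-/- and WT mice at day 0, before osteogenic medium was given. The comparison holds 4 of the 8 libraries of the series, 2 for each genotype, and the 11486 of 24421 gene rows whose mean CPM (read counts scaled to the library total, as deposited) was at least 1 in either day 0 group. Cells of both groups came from newborn C57BL/6 mice of 0 to 3 days by digestion with collagenase and dispase, and were expanded in medium without ascorbic acid. Def6-/- mice lack Def6 in all cells, and the WT mice were littermates according to the study's methods. The cells were not sorted, and whether animals were pooled for a culture is not given in the sources used here.

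Def6 encodes a guanine nucleotide exchange factor that is best known from lymphocytes and osteoclast precursors. Type I interferons bind the receptor encoded by Ifnar1 and Ifnar2, and through Jak kinases, Stat2 and Irf9 turn on the interferon stimulated genes (ISGs). Osteogenic medium supplies ascorbic acid and phosphate, on which osteoblastic cells lay down and mineralize a collagen matrix, so that day 0 shows the genotypes before this programme starts.

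Promoters of ISGs often hold a response element that Stat and Irf proteins bind. Its core, that of the interferon stimulated response element, was searched as GAAANNGAA on both strands, overlapping matches counted, in windows of 250 bases before to 50 bases after each RefSeq start (GRCm38.p6). Of 32851 promoters, 8.56% held it. Stretches upstream of the start are shown for the 3 called ISGs with a match, for H2-T23, an MHC gene that was also lower, and for Ifit1, a classical ISG that was not called. Capitals mark the matches, read 5′ to 3′ on the strand of the gene. The letters TTCNNTTTC are the same core on the other strand.
Isg15: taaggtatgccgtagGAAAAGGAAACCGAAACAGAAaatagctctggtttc
Bst2: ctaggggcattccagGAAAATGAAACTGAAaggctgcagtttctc
Irgm1: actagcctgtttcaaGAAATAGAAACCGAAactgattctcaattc
H2-T23: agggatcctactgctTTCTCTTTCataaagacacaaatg
Ifit1: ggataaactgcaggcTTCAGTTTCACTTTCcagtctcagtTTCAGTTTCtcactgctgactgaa
These stretches lie on the minus strand at chr4:156200861-156200911 (Isg15), chr8:71537573-71537617 (Bst2), chr11:48871421-48871465 (Irgm1) and chr17:36032801-36032839 (H2-T23), and on the plus strand at chr19:34640765-34640828 (Ifit1). Isg15 held 3 overlapping matches, Bst2 and Irgm1 held 2 each, and the windows of Irf7 and Uba7, the other 2 called ISGs, held none.

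Depth was even at day 0, with 2570861 to 2781030 reads on genes per library, but WT replicate 1 stood apart. Its share of reads that did not align uniquely was 34.9%, against 23.3% to 25.9% in the other 3, and its Spearman correlation with them across genes was 0.905 to 0.94, where the others correlated at 0.973 to 0.986. The log2 difference between the WT libraries had an SD of 0.781 across genes, against 0.344 to 0.411 for the other 3 pairs of replicates, and ran with gene span (Spearman correlation -0.47 across 11083 genes, which are not independent). The median log2 difference of WT replicate 1 minus replicate 2 was 1.44 for ribosomal protein genes and 1.24 for genes of oxidative phosphorylation. The main results are therefore also given without this library, whose part in them was otherwise not tested. Reads of Y-linked genes such as Ddx3y were at 28.6 and 62 normalized CPM in WT replicate 1 and Def6-/- replicate 2 and at 0 and 0.385 in WT replicate 2 and Def6-/- replicate 1, so that each genotype has 1 library with these reads and 1 nearly without. The same-numbered libraries of day 12 show the same pattern. X-linked Xist had reads in every day 0 library. It was at 135 and 210 normalized CPM in WT replicate 1 and Def6-/- replicate 2, and at 663 and 445 in WT replicate 2 and Def6-/- replicate 1. Whether a library holds cells of both sexes was not tested.

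The labels were checked by markers. Of 9 osteoblast lineage markers, 8 passed the filter, with summed levels of 36300 and 53500 normalized CPM in WT cells and 49500 and 53400 in Def6-/- cells, while Bglap, the late marker osteocalcin, had no reads. Of 9 macrophage markers, 8 passed, with sums of 364 and 220 in WT cells and 166 and 267 in Def6-/- cells. T and B cell (3) and erythroid (2) markers had no reads in any library, and no endothelial, muscle, neural, epithelial or adipocyte marker passed. Cartilage markers were present, with sums of 1890 and 3770 in WT cells and 3810 and 1950 in Def6-/- cells, so that the genotypes overlapped.

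Def6 was lost from the Def6-/- libraries. It had 147 and 112 reads in WT replicates 1 and 2 and 0 and 1 reads in Def6-/- replicates 1 and 2. In normalized CPM (reads scaled to the total on genes, with TMM factors) it was at 57.7 and 40.8 in WT cells and 0 and 0.352 in Def6-/- cells, and the labels of all 4 libraries match these reads. The ratio of WT to Def6-/- was 266, with an exact 95% interval of 47.3 to 10500 that covers counting error only. Def6 was also the only gene with a Benjamini-Hochberg adjusted p under 0.05 in limma's fit (adjusted p = 0.000592, 0.00871% of the genes tested).

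Apart from Def6, single genes were read at an unadjusted limma p under 0.05 and a change of over 1.2-fold on the log2(normalized CPM + 1) scale, where the pseudocount shrinks differences between low values. Such genes are called here. In Def6-/- cells 124 genes (1.08% of those tested) were called higher and 134 (1.17%) lower, 258 in all (2.25%). All 258 genes at a p under 0.05 also passed the fold, and in 257 of them the libraries did not overlap between genotypes. Over all genes, both Def6-/- libraries lay above both WT libraries in 11.9% and below both in 10.5%. Genes with few reads were frequent among the calls, with 56 of the 258 (21.7%) at a mean under 5 normalized CPM against 7.76% of all genes. Also 56 (21.7%, against 3.92% of all tested) had met the filter through 1 genotype only, 31 of the genes called higher through Def6-/- and 25 of those called lower through WT, so that a difference in that direction was built into their selection. Of the genes named here these are Def6, H2-T24, G0s2, Irf7, Mir7688 and Snhg14, which passed through WT, and Thrb, Tmem181b-ps, Mamstr, Itih5, Draxin, Nr6a1, Uba7 and Irf8, which passed through Def6-/-. Ibsp, which was not called, also passed through WT only. With the deposited CPM, where the median of all genes shifts from 0.00 to 0.11, the split was 125 higher and 51 lower.

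The calls depended on WT replicate 1. Without it, 257 genes (2.24%) were called higher and 252 (2.19%) lower. Of these, 74 of the 258 genes were shared, 32 higher and 42 lower, and all 258 kept their sign. Without WT replicate 2, so that WT replicate 1 alone stood for WT, 2347 and 2173 genes were called. The number called both with all libraries and with each of the 4 left out in turn was 21, of which 6 were higher and 15 lower.

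**Figure D1:**
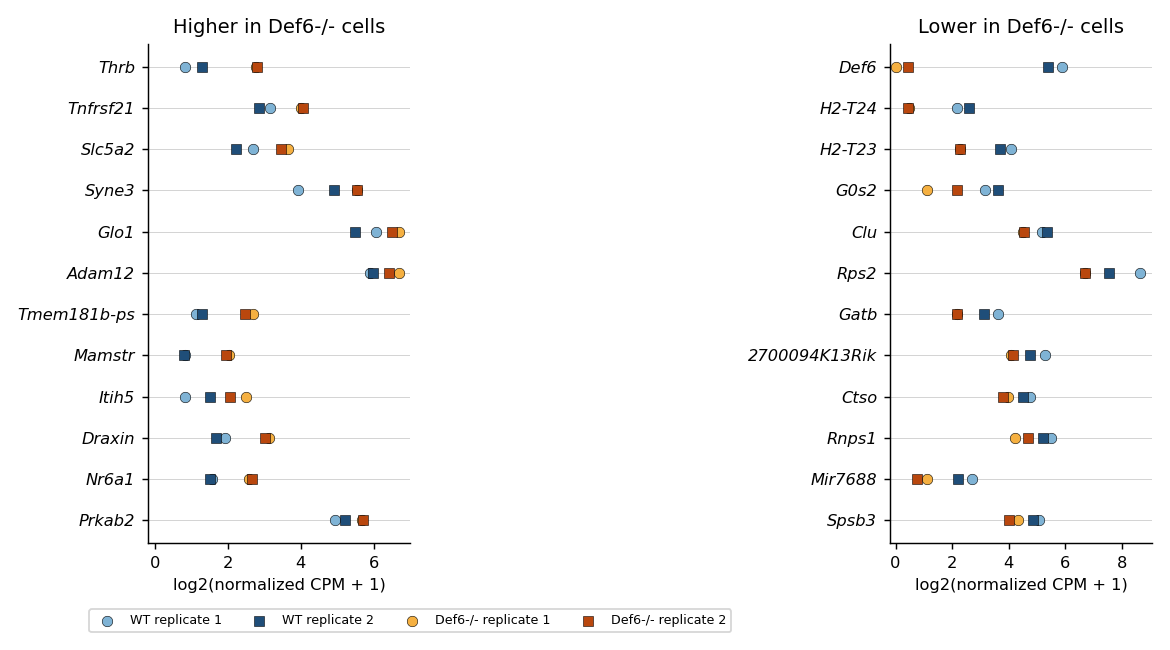
The 12 genes with the smallest limma p in each direction at day 0, among called genes whose libraries do not overlap between genotypes. The x axis is log2(normalized CPM + 1) in each of the 4 libraries, and circles are replicate 1 and squares replicate 2. That the 2 Def6-/- libraries lie on one side of both WT libraries follows from this choice of genes. For Thrb WT cells were at 0.785 and 1.46 against 5.78 and 5.99 normalized CPM in Def6-/- cells.

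Among genes higher in Def6-/- cells, Thrb, a nuclear receptor of thyroid hormone on chromosome 14, came first. It was at 0.785 and 1.46 normalized CPM in WT cells and at 5.78 and 5.99 in Def6-/- cells. It had 2 and 4 reads in the WT libraries and 15 and 17 in the Def6-/- libraries, and met the filter through Def6-/- cells only. The log2 difference was 1.72 (SE 0.32, and 1.49 without WT replicate 1). That its libraries separate by genotype follows from the choice of genes. Its limma p was 0.000506 and its adjusted p 0.894.

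Tnfrsf21, which encodes death receptor 6, was at 7.85 and 6.19 normalized CPM in WT cells and 15 and 15.5 in Def6-/- cells (log2 difference 1.03, SE 0.28, and 1.18 without WT replicate 1). Glo1, the glyoxalase that clears methylglyoxal, was at 65.5 and 44 in WT cells and 102 and 88.8 in Def6-/- cells, a log2 difference of 0.82 (1.10 without WT replicate 1). Both lie on chromosome 17, as does Tmem181b-ps, a pseudogene at 1.18 and 1.46 against 5.39 and 4.58. Its reads that also match the parent gene may have been left out as not unique, or misplaced. Slc5a2, a sodium-glucose cotransporter best known from kidney, was at 5.49 and 3.64 in WT cells and 11.6 and 9.86 in Def6-/- cells.

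Further down the genes called higher, Syne3, which links the nucleus to the cytoskeleton, was at 14.1 and 29.1 normalized CPM in WT cells and 45.1 and 45.4 in Def6-/- cells. Its difference was 1.12 on the log2 scale and 0.62 without WT replicate 1. Adam12, a membrane metalloprotease of mesenchymal cells, was at 58.8 and 61.5 against 103 and 83.8 (log2 difference 0.62, SE 0.18). Mamstr, a coactivator of Mef2, had 4 reads in the WT libraries together and 16 in the Def6-/- libraries, a ratio of 3.9 with an exact 95% interval of 1.26 to 16 that covers counting error only and holds for a gene that entered through Def6-/- cells. For Itih5, Draxin, Nr6a1 and Prkab2 the log2 differences were 1.11, 1.28, 1.09 and 0.61, and 0.78, 1.39, 1.12 and 0.47 without WT replicate 1.

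On the lower side, 2 non-classical MHC class I genes followed Def6. H2-T23, which encodes the Qa-1 antigen that inhibitory receptors of natural killer cells read, was at 16.1 and 12 normalized CPM in WT cells and at 3.85 and 3.87 in Def6-/- cells. The log2 difference was -1.62 (SE 0.32, and -1.42 without WT replicate 1), and the separation of its libraries by genotype follows from the choice of genes. Its neighbour H2-T24 had 23 reads in the WT libraries and 2 in the Def6-/- libraries, a ratio of 11.8 with an exact 95% interval of 2.91 to 103. That interval covers counting error only and holds for a gene that entered through WT cells. MHC class I genes resemble each other closely, and reads that did not align uniquely were counted apart from genes. Reads of these 2 genes may thus be missing or misplaced, and both values are uncertain.

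G0s2, an inhibitor of fat breakdown by adipose triglyceride lipase, was at 7.85 and 11.3 normalized CPM in WT cells and 1.16 and 3.52 in Def6-/- cells. Its log2 difference was -1.74 (SE 0.36) and -1.98 without WT replicate 1. Clu, the secreted chaperone clusterin, was at 35.3 and 40 against 21.6 and 22.2 (log2 difference -0.75, SE 0.17, and -0.84 without WT replicate 1). That the libraries of both genes separate by genotype follows from the choice of genes.

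Rps2, a protein of the small ribosomal subunit, was at 399 and 185 normalized CPM in WT cells and 102 and 103 in Def6-/- cells. The WT libraries differed from each other, and the log2 difference of -1.40 (SE 0.32) was -0.85 without WT replicate 1. Many pseudogene copies of ribosomal protein genes exist, so that this value is uncertain. Gatb, which acts in mitochondrial translation, was at 11.4 and 7.64 against 3.47 and 3.52. Ctso, a cathepsin, and Rnps1, a splicing factor of the exon junction complex, fell by 0.74 and 0.90 on the log2 scale, and their differences were -0.62 and -0.77 without WT replicate 1. The remaining leading lower genes were 2700094K13Rik (-0.91), Spsb3 (-0.79) and the microRNA entry Mir7688, with 24 reads in WT and 5 in Def6-/- libraries.

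Of 80 listed ISGs, 78 were in the files and 44 passed the filter. Isg15, Irf7, Bst2 and Irgm1 were called lower and Uba7 higher, and the median over the 44 was -0.20 on the log2 scale beside 0.00 for all genes tested. By sign 29 were lower and 15 higher. The list mean of log2(normalized CPM + 1) was 3.63 and 4.08 in WT replicates 1 and 2 and 3.23 and 3.98 in Def6-/- replicates 1 and 2. The genotypes thus overlapped, since Def6-/- replicate 2 lay above WT replicate 1. Without WT replicate 1 the median was -0.48 and 36 of the 44 were lower in sign. This was not particular to ISGs, since cell cycle genes in that fit had a median of -0.50, with 45 of 48 lower in sign. With all libraries the 4 lower ISG calls were 9.09% of the ISG list, against 1.17% of all genes. The direction rested on single libraries. Without WT replicate 2 the median was 0.06, without Def6-/- replicate 1 it was 0.11, and without Def6-/- replicate 2 it was -0.43. Over all genes the median in these fits was between -0.00 and 0.01.

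Isg15, an interferon-induced ubiquitin-like protein, was at 17.3 and 6.19 normalized CPM in WT cells and 1.16 and 5.28 in Def6-/- cells (log2 difference -1.64, SE 0.59). Irf7, the transcription factor that amplifies type I interferon production, was at 5.88 and 8.73 against 1.16 and 4.23 (-1.29, SE 0.47). In both genes Def6-/- replicate 1 was the lowest library and Def6-/- replicate 2 came close to a WT library. Without WT replicate 1 the differences were -0.97 and -1.54, and Isg15 was no longer called. Without Def6-/- replicate 1 they were -0.87 and -0.65, and neither was called.

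Bst2, the tetherin that holds budding viruses at the cell surface, was at 30.2 and 28.4 normalized CPM in WT cells and 8.86 and 20.8 in Def6-/- cells (log2 difference -1.05, SE 0.40), and it was still called without WT replicate 1. Irgm1, an immunity-related GTPase, was at 21.6 and 25.8 against 10.4 and 18.3 (-0.73, SE 0.29, and -0.85 without WT replicate 1). Both WT libraries were alike for these 2 genes and the spread lay among the Def6-/- libraries. Without Def6-/- replicate 1 the differences of Bst2 and Irgm1 were -0.48 and -0.35, and neither was called. Uba7, the E1 enzyme that activates Isg15, had 7 reads in the WT libraries and 17 in the Def6-/- libraries, at 1.18 and 1.46 in WT cells and 3.47 and 2.82 in Def6-/- cells (0.84, SE 0.28, and 0.75 without WT replicate 1).

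**Figure D2:**
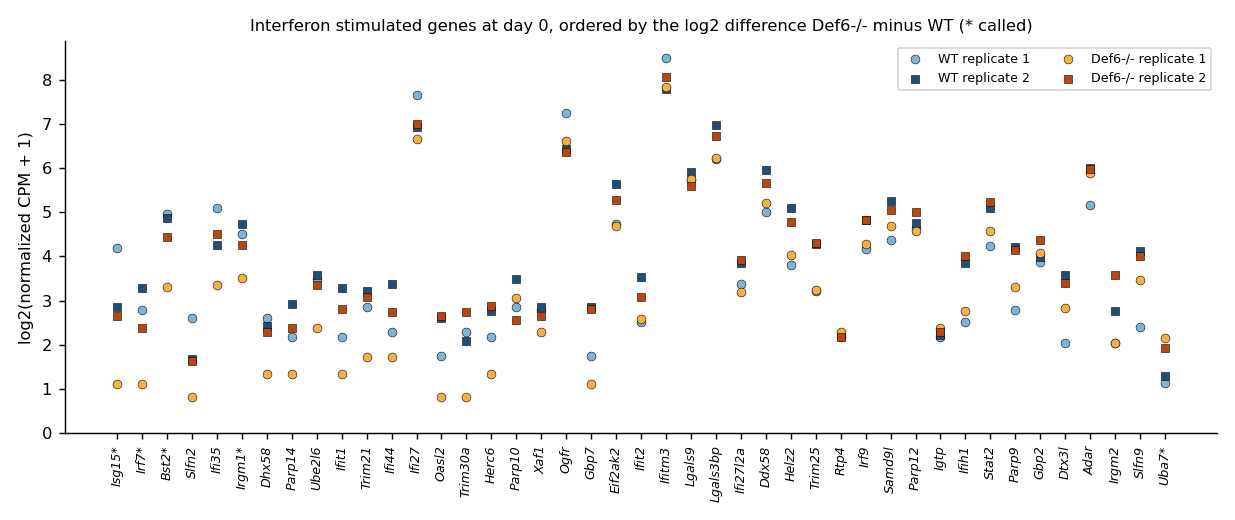
The ISGs that passed the filter, 1 of the 44 left out, ordered from the lowest to the highest log2 difference Def6-/- minus WT (x axis), as log2(normalized CPM + 1) in each library (y axis); circles are replicate 1, squares replicate 2, and an asterisk marks the 5 called genes. In many genes the replicate 1 libraries of both genotypes lie below the replicate 2 libraries, and the list means were 3.63 and 3.23 in replicates 1 and 4.08 and 3.98 in replicates 2 of WT and Def6-/- cells.

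ISGs also differed between libraries of the same genotype, by more at the median than between genotypes. The median over the 44 was 0.61 lower in WT replicate 1 than in replicate 2 (-0.61) and 0.74 lower in Def6-/- replicate 1 than in replicate 2 (-0.74). Ifit1 was at 3.53 and 8.73 normalized CPM in WT cells and 1.54 and 5.99 in Def6-/- cells. It was not called, with a log2 difference of -0.66, and in each genotype replicate 1 was the lower library. The difference was -1.21 once WT replicate 1 was left out. The Y-linked reads split the libraries otherwise: in the pair with these reads the list mean was 3.63 in WT and 3.98 in Def6-/- cells, and in the pair nearly without them 4.08 and 3.23. The part of this split in the ISG result was not tested.

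Among 36 measured ISGs with a RefSeq promoter, 22 (61.1%) held the GAAANNGAA core, and their median log2 difference was -0.17, against -0.27 for the 14 without it. Over all tested genes with a promoter, 8.39% held the core. Of the 5 called ISGs, 3 held it.

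Upstream of the ISGs, the receptor genes did not differ beyond the spread of the libraries. Ifnar1 was at 89.1 and 103 normalized CPM in WT cells and 91.7 and 102 in Def6-/- cells, and Ifnar2 at 39.2 and 40.8 against 36.2 and 45.1. Both receptor chains had a log2 difference of 0.02 (SE 0.17 and 0.23), and the genotypes overlapped. Stat3 was at 156 and 238 against 222 and 241 (0.26), and Eif2ak2, the double-stranded RNA sensor PKR, at 25.5 and 49.1 against 24.7 and 37.7 (-0.21). For Eif2ak2 the difference was -0.67 when WT replicate 1 was left out. Ifnb1, which encodes interferon beta, had no reads at day 0, and Mx1 and Cxcl10 did not pass the filter, with at most 0.392 and 0.785 normalized CPM.

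Of 27 genes of interferon signalling, 24 passed, and 1 was called. That gene was Irf8, a transcription factor of myeloid cells, at 1.18 and 1.46 normalized CPM in WT cells and 3.08 and 2.82 in Def6-/- cells (log2 difference 0.77, and not called without WT replicate 1). It had 7 reads in the WT libraries and 16 in the Def6-/- libraries, and met the filter through Def6-/- cells only. The median of the 24 was 0.05, and 0.02 without WT replicate 1. Tmem173 (STING) and Jak2, the next by p, had log2 differences of 0.55 and 0.36 and were not called.

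No osteoblast gene was called at day 0 with all libraries, against 2.25% of all genes tested. Of 49 listed, 40 passed, with a median log2 difference of 0.06 (0.04 without WT replicate 1) and single values between -0.94 and 0.75. Without WT replicate 1, 22 were higher and 18 lower in sign, and Alpl was at -0.48. Alpl, alkaline phosphatase, was at 16.1 and 21.5 normalized CPM in WT cells and 13.5 and 16.9 in Def6-/- cells (-0.28, SE 0.22). Runx2, the transcription factor that commits cells to the lineage, was at 50.6 and 108 against 87.1 and 109, and Col1a2 at 8860 and 13900 against 13100 and 14300. In both the lowest library was WT replicate 1, and their log2 differences of 0.39 and 0.30 became -0.15 and -0.02 without it. Ibsp was at 10.2 and 0.728 against 1.54 and 1.06 (log2 difference -0.94, and 0.40 without WT replicate 1).

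Collagens had the highest median among the matrix lists. Of 22 listed, 20 passed, 19 were higher in sign and the median was 0.41. Leaving out WT replicate 1 gave a median of 0.13, with 15 higher and 5 lower in sign. Col3a1, a fibrillar collagen, was at 2570 and 2970 normalized CPM in WT cells and 4130 and 3660 in Def6-/- cells (log2 difference 0.49), and Col15a1, a basement membrane collagen, at 4.32 and 5.09 against 6.94 and 12.7 (0.87). Both were called higher, and neither was called without WT replicate 1. Timp3, a matrix-bound inhibitor of metalloproteases and the only one called of 18 measured in its list, was at 1240 and 1280 against 1730 and 1600 (0.40, and 0.37 without WT replicate 1).

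The Wnt (27 passed), BMP and TGF-beta (38) and Hedgehog and Notch (15) lists had none, with medians of 0.11, 0.14 and 0.35, and -0.11, 0.05 and -0.15 without WT replicate 1. In that fit 16 of the 27 Wnt genes were lower in sign and 24 of the 38 BMP and TGF-beta genes higher. In the list of IGF and FGF genes, Igfbp3 was called higher, at 21.2 and 24.4 normalized CPM in WT cells and 29.7 and 53.9 in Def6-/- cells (log2 difference 0.79). Igfbp2, also a binding protein of insulin-like growth factors, was called lower, at 3410 and 2970 against 1760 and 2660 (-0.56), and was not called without WT replicate 1. The median of the 24 genes was 0.18, and 0.01 without WT replicate 1.

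Myh11, a smooth muscle myosin, was the only call among 21 contractile genes, at 7.06 and 5.09 normalized CPM in WT cells and 15.4 and 11.6 in Def6-/- cells (log2 difference 1.04, and 1.24 without WT replicate 1). The list's median was -0.08. Leaving out WT replicate 1 gave 0.25, with 18 of the 21 higher in sign, beside a median of 0.01 for all genes.

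Cell cycle genes (48 passed) had a median of -0.01 and 1 call, Mybl2, higher at 14.3 and 19.4 normalized CPM in Def6-/- cells against 6.28 and 10.6 in WT cells. Without WT replicate 1 their median was -0.50 and 45 of the 48 were lower in sign, while the log2 difference of Mybl2 went from 0.94 to 0.61. Like the ISGs they were lower in replicate 1 than in replicate 2 of both genotypes (medians -0.83 in WT and -0.56 in Def6-/- cells). Early response genes were higher in replicate 1 of both (0.88 and 0.50). Of 21 measured, Nr4a2 and Klf4 were called higher (log2 differences 0.74 and 0.61), and neither was called without WT replicate 1. The list's median was -0.02, and 0.47 without WT replicate 1, with 18 of 21 higher in sign.

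All 74 measured ribosomal protein genes were lower in sign in Def6-/- cells, with a median of -0.47, and 71 of 73 genes of oxidative phosphorylation, with a median of -0.45. A single gene of these lists, Rps2, was called. Without WT replicate 1 the medians were 0.25 and 0.16, and 73 of 74 and 62 of 73 were higher in sign. The summed level of the ribosomal proteins was 46400 normalized CPM in WT replicate 1, 17500 in WT replicate 2 and 22600 and 18600 in the Def6-/- libraries. WT replicate 1 alone thus set the sign of both lists.

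Macrophage genes (31 passed, none called) had a median of -0.21, and 0.05 without WT replicate 1. Their summed level was 636 and 413 normalized CPM in WT cells and 339 and 474 in Def6-/- cells, so that the genotypes overlapped. Fewer cells of a type and less RNA per cell cannot be told apart in such libraries. MHC class I genes (16 passed) had a median of -0.37, and -0.16 without WT replicate 1, with H2-T23 and H2-T24 called lower. No lymphocyte gene passed, and no gene was called among 15 adipocyte, 16 chondrocyte, 6 osteoclast, 4 endothelial and 16 Hox and positional genes, with medians of -0.06, -0.15, -0.08, -0.01 and 0.14. Leaving out WT replicate 1 gave -0.10, -0.41, -0.16, -0.10 and -0.08, with 14 of 16 chondrocyte genes lower in sign. None of 6 sex-linked genes was called, and none of 13 listed genes encoded in mitochondria was in the files. Fewer than 4 genes passed for the erythroid, muscle and epithelial lists, and 6 for the neural list, and none was called.

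Metabolic and stress lists also held no call. The medians were -0.01 for 23 cholesterol, 0.02 for 24 glycolysis, -0.15 for 24 endoplasmic reticulum stress and -0.09 for 21 metallothionein and antioxidant genes. Chemokines and cytokines (20 passed) had a median of -0.16 and MHC class II genes (3 passed) of 0.01, without a call. Their medians without WT replicate 1 were 0.01 (cholesterol), 0.05 (glycolysis), 0.03 (endoplasmic reticulum stress), 0.05 (metallothionein and antioxidant), 0.18 (chemokines and cytokines) and 0.14 (MHC class II). With the deposited CPM, where all genes shift by 0.11, the medians of the adipocyte, osteoclast, contractile, neural, early response, cell cycle, cholesterol and metallothionein lists change sign from negative to positive.

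**Figure D3:**
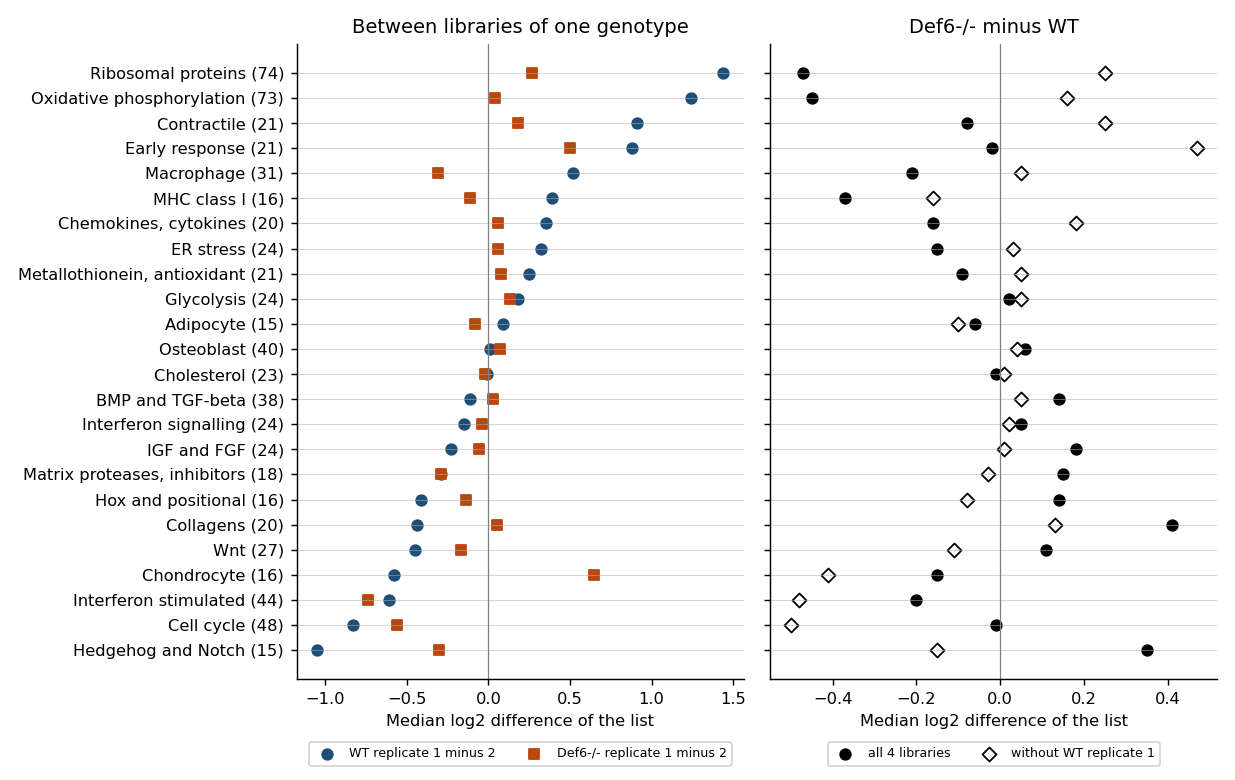
Median log2 difference (x axis) of gene lists with at least 15 measured genes (y axis, number measured in brackets): left, replicate 1 minus replicate 2 within each genotype; right, Def6-/- minus WT with all 4 libraries and without WT replicate 1. Ribosomal proteins lie at 1.44 between the WT libraries, and their genotype difference goes from -0.47 to 0.25 without WT replicate 1, whereas those of ISGs are -0.20 and -0.48 (0.06 without WT replicate 2 and 0.11 without Def6-/- replicate 1, not drawn).

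Def6 lies on chromosome 17 from 28207456 to 28228608 (GRCm38.p6), and called genes were frequent around it. Of 157 tested genes whose start lay within 5 Mb of that of Def6, 12 (7.64%) were called, 8 lower and 4 higher, and of 369 within 20 Mb 23 (6.23%) were called, 17 lower and 6 higher. Among the 177 tested genes of chromosome 17 farther away 2 (1.13%) were called, and the other 19 chromosomes gave between 1.21% and 3.92%. Within 1 Mb 25 genes were tested and only Def6 was called. Without WT replicate 1, 13 of the 23 genes were still called the same way. The mice were backcrossed to C57BL/6, and a backcross leaves sequence of the donor strain around a targeted gene, so that the region and the loss of Def6 cannot be told apart here.

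The genes called within 5 Mb besides Def6 were Glo1, Mdga1, Abca3 and Tbc1d24, which were higher, and Rps2, Rnps1, Spsb3, Mrps34, Mrpl28, Slc9a3r2 and Zfp213, which were lower. Abca3, a lipid transporter, was at 16.9 and 32.7 normalized CPM in WT cells and 35.8 and 56.7 in Def6-/- cells (log2 difference 0.91, and 0.45 without WT replicate 1). Mrpl28 and Mrps34, proteins of the mitochondrial ribosome, were at 84 and 43.7 against 33.9 and 35.2 and at 62.8 and 38.6 against 28.5 and 28.5. In these 3 genes WT replicate 2 lay nearer to the Def6-/- libraries than WT replicate 1 did, and none was called without WT replicate 1. Zfp213, a zinc finger gene, was at 11 and 16.7 against 8.09 and 5.99 (-0.87, and -1.15 without WT replicate 1). Beyond 5 Mb but within 20 Mb, H2-T24 (7.80 Mb), H2-T23 (7.82 Mb), Gtf2h4 (7.46 Mb) and Ermard (-13.2 Mb) were called lower. Tnfrsf21 (14.8 Mb) and Rcan2 (15.6 Mb) were called higher. The zinc finger genes Zfp52, Zfp942, Zfp943, Zfp758 and Zfp40, from -6.67 to -5.03 Mb, were also called lower. Other zinc finger genes between them, such as Zfp760 (log2 difference 0.62), were not called. Genes here that the rule for naming leaves out were named after their values were seen. The log2 differences of Slc9a3r2, Tbc1d24 and Mdga1 were -0.74, 0.89 and 0.76.

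**Figure D4:**
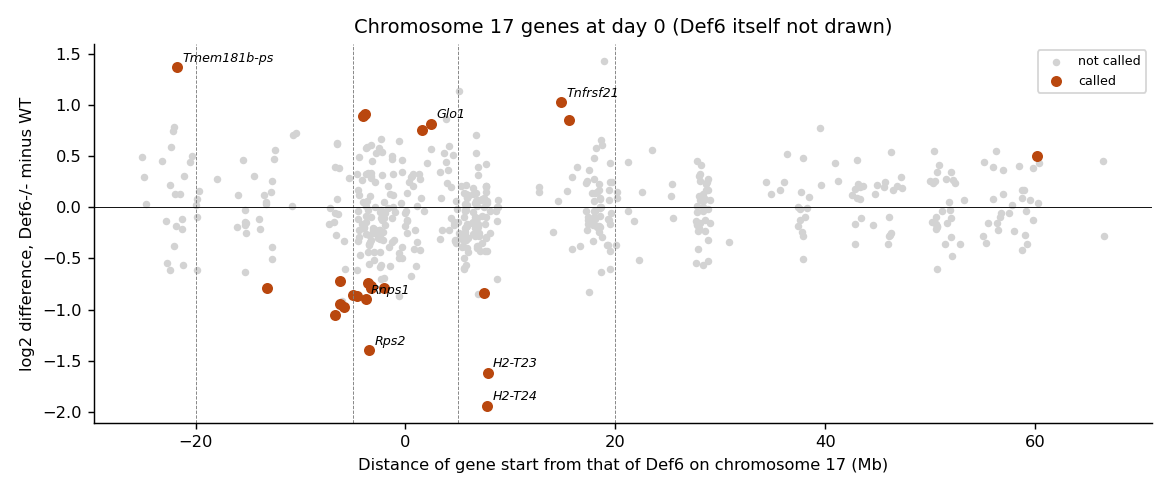
Log2 difference Def6-/- minus WT at day 0 (y axis) of the tested genes of chromosome 17 by distance of their start from that of Def6 in Mb (x axis); dashed lines mark 5 and 20 Mb, called genes are coloured and Def6 itself is not drawn. Within 20 Mb 23 of 369 genes, Def6 included, were called, and farther away 2 of 177.

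The day 0 difference was then set beside that of the day 12 libraries. Among the same 11486 genes, 58 (0.505%) were called higher and 55 (0.479%) lower at day 12. Of the 258 genes called at day 0, 164 (63.6%) had the same sign at day 12, against 55% of all genes. The number called in the same direction at both days was 19, which is 7.36% of the day 0 calls and 16.8% of the 113 day 12 calls. The days have separate WT and Def6-/- libraries, but same-numbered libraries share their Y-linked reads, and the labels do not say whether they came from the same cells.

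Of these 19 genes, 10 lie on chromosome 17: Def6, H2-T23, Rps2, Tnfrsf21, Rnps1, Glo1, Zfp52, Tmem181b-ps, Mrps34 and Zfp40. Chromosome 17 held 546 of the 11466 tested genes with a position. At day 0 it held 8 of the genes called higher and 17 of those called lower. Glo1 differed by 0.82 at day 0 and 1.19 at day 12 on the log2 scale, and Rps2 by -1.40 and -1.10. The ISGs among the 19 were Isg15 (-1.64 and -1.49), Irf7 (-1.29 and -1.45), Bst2 (-1.05 and -1.11) and Irgm1 (-0.73 and -0.67). The others were Foxd1, Rerg, Dock9, Cspg4 and Timp3, with 0.40 and 0.41 for Timp3. Genes of this group that the rule for naming leaves out were named after their values were seen.

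The signed difference Def6-/- minus WT was higher at day 12 than at day 0 for 52 genes (0.453%) and lower for 45 (0.392%), whatever its size at either day, at an unadjusted p under 0.05 of limma's interaction, and none had an adjusted p under 0.05, by limma. Of the 258 day 0 calls, 41 were among these, and in all 41 the interaction had the sign opposite to the day 0 difference. The interaction contains the day 0 difference by which these genes were chosen, so that this direction follows in part from the choice. Thrb was at 8.82 and 10.7 normalized CPM in WT cells and 10.4 and 8.72 in Def6-/- cells at day 12, where the genotypes overlapped (interaction -1.74, SE 0.45). H2-T24 (interaction 2.44), G0s2 (1.79) and Snhg14 (2.08), lower at day 0, and Uba7 (-1.39), higher at day 0, were not called at day 12.

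**Figure D5:**
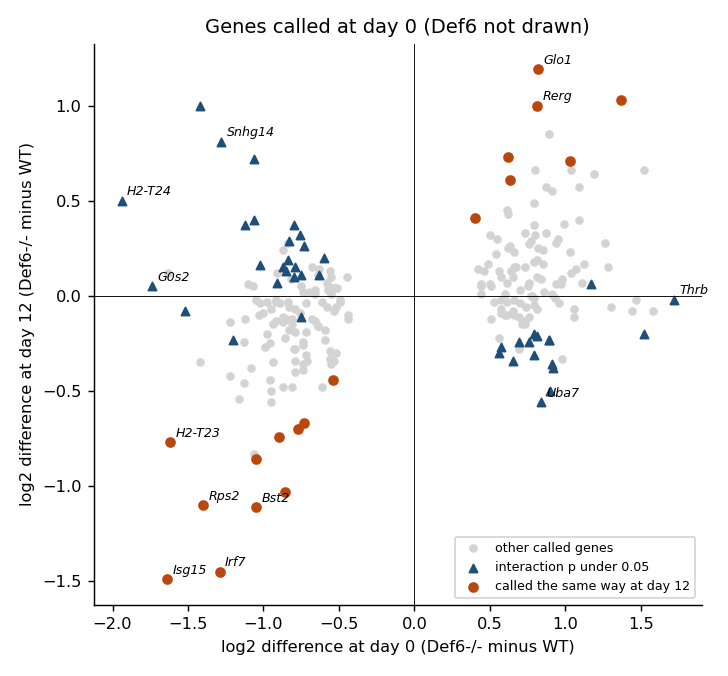
Log2 difference Def6-/- minus WT at day 0 (x axis) and day 12 (y axis) of the genes called at day 0, Def6 left out; circles in orange are called the same way at both days and triangles have an unadjusted interaction p under 0.05. Glo1, Rps2, Isg15, Irf7 and Bst2 lie away from 0 on both axes, and Thrb (1.72 and -0.02) and G0s2 (-1.74 and 0.05) only on the x axis.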

How the data were processed

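Poly-A RNA of Def6-/- and WT calvarial osteoblastic cells was measured by RNA-seq in 4 libraries at day 0 and 4 at day 12. For the deposited CPM the authors used HISAT2 (mm10) for alignment, HTSeq for counts per gene and edgeR for scaling, relative to all reads counted, including those outside genes; fastp is also named in the submitters' processing notes. Versions, annotation and strand setting are not given in the sources used here, so that overlapping and antisense genes cannot be told apart. No filter or composition factor is applied in the files. A deposited CPM value was a whole number of reads (within 0.01) for 99.973% of 56262 positive day 0 values; the 15 exceptions are in Adgre1, Ctsk, Itgb3 and Itgam.

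Values were then divided by each library's total on genes times its TMM factor (normalized CPM). Genes with a mean of at least 1 CPM in either day 0 group were fitted with limma 3.58.1 (lmFit, eBayes with a trend, two-sided) in R 4.3.3 on log2(normalized CPM + 1), as 4 group means over all 8 libraries, which share 1 estimate of the spread. The interaction is the genotype difference at day 12 minus that at day 0. The study's methods name edgeR; the recovered reads were also tested with edgeR (4.0.16) and with DESeq2 (1.42.0) as alternatives. limma's fit was tested on simulated data. In every group the replicates were farther apart than sampling of reads gives (chi-square per gene 4.28 to 31.9). The study calls them biological replicates, and within each genotype they differed in Y-linked reads. How many animals each came from is not stated in the sources used here. The p-values measure the spread between these libraries, which may be technical in part. The depth, up to 2781030 reads on genes, bounds the precision of low values. Positions come from RefSeq GRCm38.p6, the build of mm10, for 99.8% of tested genes; promoters were found for 8809.

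The members and the 35 gene lists were chosen with earlier results of these data known. Genes named are Def6, those the study measured singly, the 12 with the smallest p in each direction among called genes whose libraries do not overlap, the called genes of each list and up to 3 with the smallest p, those called within 5 Mb of Def6 and the 5 with the smallest interaction p in each direction; not every gene under this rule is printed, and some results are not reported here. Lists were described by counts and medians, with no set test.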

Additional observations from a re-analysis of the deposited data

Results flagged for a closer look

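No group here has the 4 libraries that a search for outlying values needs. The genotype difference of the following genes differed between day 0 and day 12 by limma's interaction, at an unadjusted p under 0.05 that did not hold after adjustment for any of them. They are the 5 with the smallest p in each direction. The signed difference Def6-/- minus WT was higher at day 12 for H2-T24 (interaction 2.44 on the log2 scale), Snhg14 (2.08), Ccdc101 (1.60), Kcnk1 (1.56) and G0s2 (1.79). It was lower at day 12 for Thrb (-1.74), Uba7 (-1.39), Neto2 (-0.91), Tshz3 (-1.29) and Trdmt1 (-1.31). A positive interaction is no larger effect: G0s2 went from -1.74 at day 0 to 0.05 at day 12 and H2-T24 from -1.94 to 0.50. Kcnk1, a potassium channel, was at 7.06 and 8 normalized CPM in WT cells and 4.24 and 4.93 in Def6-/- cells at day 0, and at 20.2 and 12.7 against 38.1 and 26.6 at day 12. The Def6-/- libraries of Kcnk1 thus lay under the WT libraries at day 0 and over them at day 12. Neto2, an auxiliary subunit of kainate receptors, went the opposite way, at 11.8 and 13.5 against 17 and 17.6 at day 0 and 53.2 and 49.2 against 33.7 and 39 at day 12.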

How the results depend on the processing

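The main counts were 124 genes higher and 134 lower, and 52 and 45 genes with a positive and a negative interaction (signed genotype difference at day 12 minus day 0). Leaving out 1 day 0 library at a time, in fits where a lone library is assumed to vary like the other groups, gave 52 to 2347 higher, 79 to 2173 lower, 38 to 1496 positive and 27 to 1742 negative; the adjusted count of 1 became 1 to 3033, the highest without WT replicate 2 in each case. DESeq2 on recovered reads called 30 higher, 162 lower, 26 positive and 3 negative. With only the 4 day 0 libraries 23 were higher, 36 lower and 0 had an adjusted p under 0.05 by limma (59 at an unadjusted p). The deposited CPM gave 51 lower and 28 negative. Without a filter there were 190 higher, 212 lower, 132 positive and 135 negative, and with a filter at 5 CPM 70, 69, 18 and 20. The next alternatives, 2 in number, were chosen after seeing the data: sample weights gave 27 higher, 26 lower, 21 positive and 26 negative, with the same weight for both WT libraries of day 0, and treating same-numbered libraries of a genotype as correlated (consensus 0.0744) gave 125, 135, 67 and 57. The cause of these changes was not tested. The replicate numbers are not known to pair libraries: same-numbered libraries correlated in their deviations from the group means at 0.353 at day 0 and at 0.00811 to 0.169 in the other 5 pairs of groups. With the replicate block 162 genes were higher, 166 lower, 71 positive and 57 negative, and no call of a named gene changed.

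Values of named genes that were not called reversed in sign in some fits, and leaving out 1 library at a time gave these ranges: -2.29 to 0.40 for Ibsp, -0.02 to 0.63 for Col1a2, -0.15 to 0.93 for Runx2, -0.04 to 0.56 for Stat3, -1.39 to 0.07 for Ifit1, -0.70 to 0.32 for Ifit2, -0.67 to 0.25 for Eif2ak2, -0.08 to 0.12 for Ifnar1 and -0.14 to 0.17 for Ifnar2. The sign turned without WT replicate 1 for Ibsp, Col1a2, Runx2, Stat3, Ifnar1 and Ifnar2 (-0.01), without WT replicate 2 for Ifit2 and Eif2ak2, without Def6-/- replicate 1 for Ifit1, Ifit2 (0.05) and Eif2ak2 (0.09), and without Def6-/- replicate 2 for Ifnar1 (-0.06) and Ifnar2. With DESeq2 size factors both receptor genes were at -0.00. None of the named genes that were called reversed under the alternatives run. Of 28 list medians, 16 moved by more than the spread between replicates without WT replicate 1, 13 without WT replicate 2, 5 without Def6-/- replicate 1, 5 without Def6-/- replicate 2 and 8 with the deposited CPM.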
